A study of Equus caballus with 19 samples.

Results

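PCNA, RFC3, FEN1, EXO1 and MSH3 are genes of DNA replication and mismatch repair whose transcripts were measured in the blood of 19 young horses. They were chosen by a measured difference: each has a probe in the published supplementary list of probes that differed between the study's groups, at an unadjusted p under 0.005 and a difference of at least 20%. A further 3 probes on the array carry the same transcript name as the listed probe of PCNA, EXO1 or MSH3, so the 5 genes, of 1179 that could be named on the arrays, were read by 8 of the 43384 probes. Because the contrast between groups on these same arrays selected the genes, that contrast is given for them as a description with no test. Sex, and the covariation of the genes among horses of the same group, were not used in the choice and were tested.

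The horses were prepubertal Welsh foals that grew up together after weaning and were then allocated at random, balanced for personality, to a treatment of 12 weeks. The 9 control horses (6 males and 3 females), named impoverished in the sample labels (which also number each horse), lived in small single stalls with a uniform feed and short outings alone in a paddock, and could see but not touch other horses. For the 10 horses given the enriched environment (EE; 4 males and 6 females), space, company and variety were added: roomy stalls with straw by day, grazing in a group that included a mare at other times, and changing feeds, objects, scents, music and walks. Time with people and the energy of the feed were kept equal, the sexes were not evenly divided between the groups, and the RNA of each horse's venous blood was hybridised to 1 array with 1 dye. Each signal is given as log2 of the background-corrected intensity after the array was scaled to a 75th percentile of 500, and a probe counted as above background where the scanner software marked it as well above background. Between 61.2% and 69.6% of the spots of an array were above background. Precision is limited by the number of arrays. Genes that define blood cells were above background on all 19 arrays: the globins HBA2 and HBB of red cells, S100A12 of neutrophils, CD14 of monocytes, LCK of T cells, CD74 of antigen-presenting cells, GZMB of cytotoxic lymphocytes and SELP of platelets. TFRC, the transferrin receptor of red cell precursors, was above background on 0 arrays.

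A cell copies its DNA once before it divides, and the ring-shaped clamp PCNA, loaded onto DNA by the replication factor C complex, holds the polymerases to the template and recruits nucleases that trim and repair the new strand. Mismatch repair follows the replication fork and uses some of the same proteins: a sensor finds a mispaired base or loop, a nuclease removes the stretch around it, and PCNA takes part in filling the gap. Transcripts of replication genes are known to be abundant in dividing cells, while most cells in circulating blood, among them mature neutrophils and red cells, do not divide.

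PCNA, the sliding clamp, gave log2 signals from 11.04 to 11.71 in control horses (median 11.37) and from 10.58 to 11.33 in EE-treated horses (median 10.94) with its listed probe (A_69_P024312, transcript ENSECAT00000013658). The ranges overlapped, but the control mean was above all 10 EE-treated horses, and 7 of them were below the lowest control horse. The mean was 11.35 ± 0.20 (SD, n = 9) for the control group against 10.93 ± 0.27 (SD, n = 10) for EE, a difference (EE minus control) of -0.41 and a ratio of 0.75. The supplementary list heads its fold change as enriched over control, and read that way it gives all 5 genes the opposite direction to the arrays as grouped by the sample labels. The study's text, like the arrays, places mismatch repair with the genes higher in control horses. In bulk blood, fewer cells that carry a transcript and less of that transcript per cell cannot be told apart, and this holds for every gene described here. RFC3, a subunit of the complex that opens the clamp and places it on DNA (probe A_69_P040066, transcript ENSECAT00000023000), ran from 9.95 to 10.63 in control horses (median 10.22) and from 9.56 to 10.40 in EE-treated horses (median 9.86). Its groups overlapped through EE-treated horse643 (10.40) and horse651 (10.22), while 8 of the 10 EE-treated horses were below the lowest control horse. The RFC3 means were 10.24 ± 0.19 (SD, n = 9) and 9.90 ± 0.25 (SD, n = 10), which differed by -0.34.

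The nucleases came next in the pathway. FEN1, which removes the flaps left between the short pieces of the lagging strand (probe A_69_P010496, transcript ENSECAT00000005244), had signals of 6.93 to 7.84 in the control group (median 7.59) and 6.39 to 7.62 in the EE group (median 6.90). EE-treated horse643 (7.62) and horse649 (7.36) lay inside the control range with 3 others, and 5 were below it. The FEN1 means, 7.45 ± 0.32 (SD, n = 9) for control and 6.89 ± 0.39 (SD, n = 10) for EE, were -0.56 apart. EXO1, the exonuclease that removes the stretch of DNA around a mismatch (listed probe A_69_P008176, transcript ENSECAT00000019461), spanned 4.56 to 5.56 in control horses (median 5.19) and 3.97 to 5.46 in EE-treated horses (median 4.50). Only horse643 of the EE group, at 5.46, lay in the upper part of the control range, the rest of its group was at 3.97 to 4.74, and 6 of the 10 were below the lowest control horse. The EXO1 difference was also -0.56, from 5.10 ± 0.35 (SD, n = 9) in control to 4.54 ± 0.38 (SD, n = 10) in EE. With the normexp setting, which changed the signal used, the background correction, the offset and the spots kept all at once, the EXO1 difference was -0.03 and that of FEN1 was -0.31. Which of these changes moved the values was not tested.

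MSH3, which recognises loops of unpaired bases (listed probe A_69_P063477, transcript ENSECAT00000010818), had signals between 7.21 and 7.92 (median 7.36) in control horses and between 6.95 and 7.36 (median 7.10) in EE-treated horses. Only EE-treated horse649, at 7.36, reached the control range with the listed probe, and control horse645 and horse474 stood above the rest of their group at 7.92 and 7.90. The MSH3 means of 7.46 ± 0.27 (SD, n = 9) and 7.11 ± 0.12 (SD, n = 10) differed by -0.35, and the difference was -0.19 with normexp. PCNA and RFC3 had -0.44 and -0.36 with normexp.

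The plot of the 8 probes by group shows every horse. Each of the 8 probes was above background on all 19 arrays with 0 saturated spots, and the groups overlapped in all 8. Over all 43384 probes, 279 (0.643%) were lower and 510 (1.18%) higher in EE at the unadjusted p of 0.005 in limma and a ratio of EE over control outside 0.8 to 1.2. With the same limits set on control over EE, 298 were lower and 481 higher. The balance between the 2 directions depended on single horses, with 330 lower and 314 higher without horse470, and 219 and 282 without horse477. It depended on the fit as well, with 259 lower and 745 higher when slide was a block. An adjusted p under 0.05 was reached by 0 probes, in limma and in the random-variance test of the study's methods, while 5068 had an unadjusted p under 0.05 in limma. Among the listed probes RFC3 had the smallest difference as a ratio, 0.79 for EE over control and 1.27 for control over EE. The probes that the list does not hold had ratios of 0.83 for PCNA, 0.84 for MSH3 and 0.78 for EXO1 (turned, 1.2, 1.19 and 1.29).

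**Figure D1:**
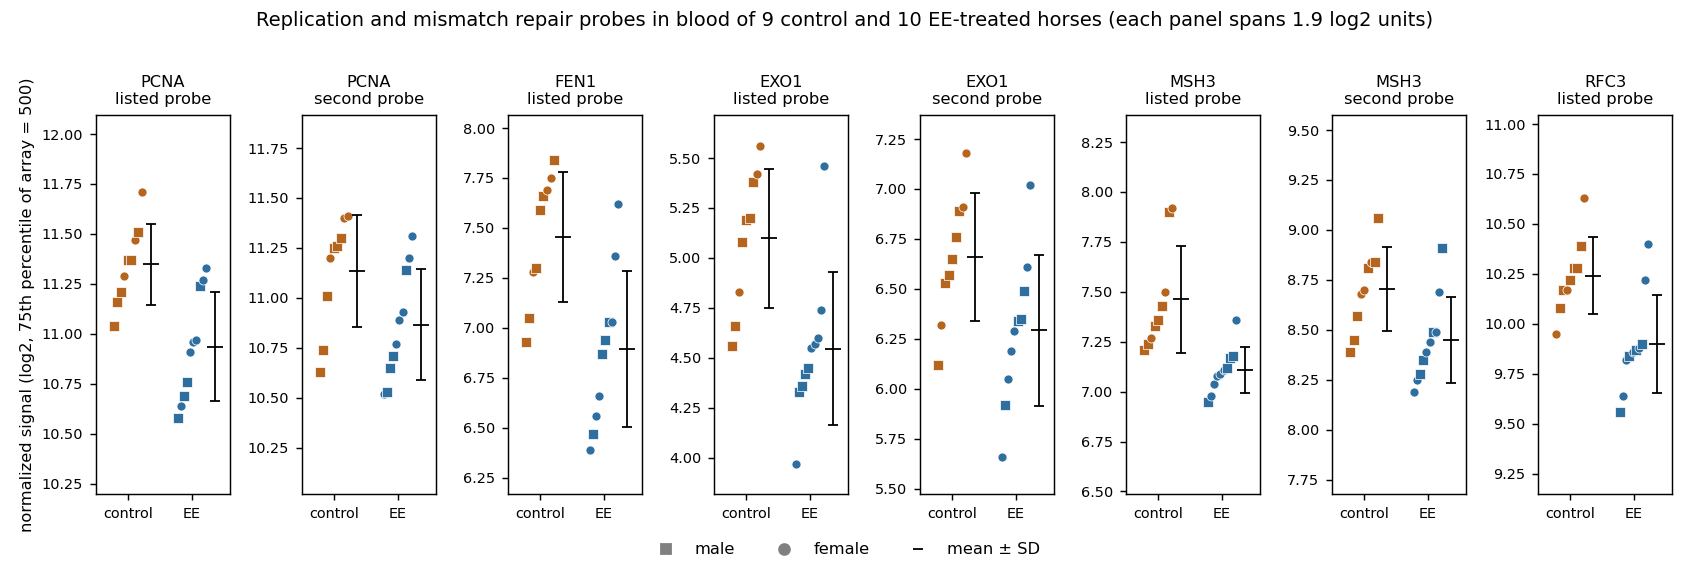
Log2 signal of the 8 probes of PCNA, FEN1, EXO1, MSH3 and RFC3 in each control and EE-treated horse, squares for males and circles for females, with the mean and SD of each group beside the points; all panels span the same number of log2 units. The groups overlap in all 8 probes, and EE-treated horse643, at 5.46 for the listed EXO1 probe, stands above the rest of its group, at 3.97 to 4.74.

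The direction was also followed within slides, since each of the 5 slides carried horses of both groups. PCNA was lower in EE on all 5 slides, by differences from -0.88 to -0.07. RFC3 was lower on all 5 as well, from -0.52 to -0.06. MSH3 too was lower on each of the 5 slides, from -0.57 to -0.17. FEN1 was lower on 4 slides, from -1.23 on slide 1 to 0.17 on slide 3. EXO1 had the same exception, with -0.95 on slide 1 and 0.14 on slide 3, the slide that held EE-treated horse643 and horse649. With 1 or 2 horses of a group on a slide, and genes chosen by this contrast, these values carry no test. Position on the slide went with the group. Control arrays lay at position 2 or 4, and EE arrays at 1 or 3 except horse475 at 2. Treatment and position can therefore hardly be told apart within slides, and position was not tested.

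**Figure D2:**
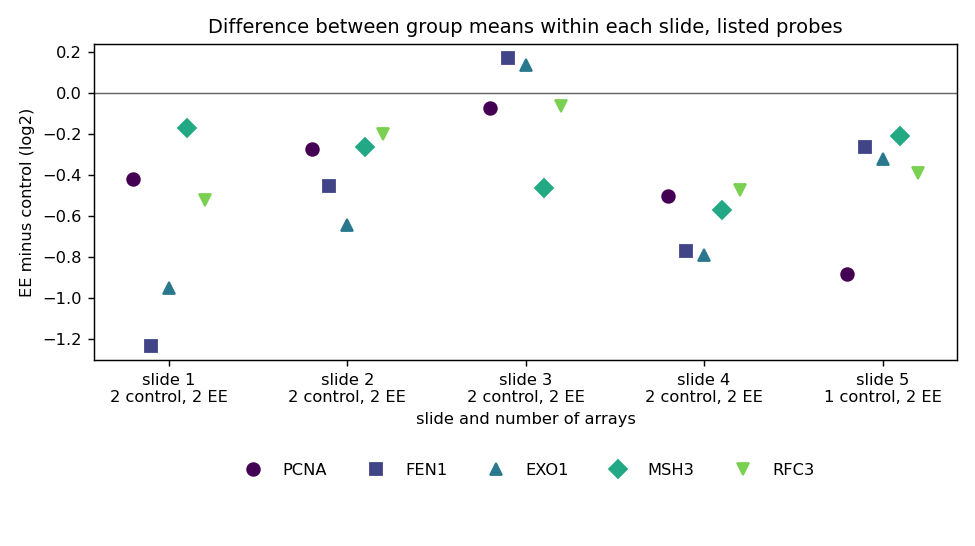
Difference between the EE and control means (log2) of the listed probe of each of the 5 genes within each slide, with the number of arrays per group under each slide. FEN1 and EXO1 lie above 0 on slide 3 alone, at 0.17 and 0.14, and PCNA, MSH3 and RFC3 lie below 0 on all 5 slides.

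The same direction was found in each sex. The genes were chosen by this contrast over horses of both sexes, so the shared direction is a description and no independent support. In males the listed PCNA probe differed by -0.46 between treatments (6 control and 4 EE-treated horses) and in females by -0.47 (3 control and 6 EE-treated horses). For FEN1 the differences were -0.57 in males and -0.63 in females, and for EXO1 -0.62 in both. RFC3 differed by -0.45 in males and by -0.28 in females, and MSH3 by -0.31 and by -0.45. Whether the treatment difference depended on sex was tested over all probes with the interaction term in limma. Its standard errors for the 8 probes were 0.22 to 0.35, so an interaction as large as these differences could be missed. The interaction reached an adjusted p of 0.05 in 0 of the 8 probes (adjusted p from 0.983 to 1 in limma) and in 0 of the 43384 probes (0%), where 1323 had an unadjusted p under 0.05.

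Sex itself was tested with treatment in the fit. Of the 8 member probes, 0 differed between males and females (adjusted p from 0.835 to 0.956 in limma), beside 23 of the 43384 probes (0.053%). An unadjusted p under 0.05 in limma was reached by 0 of the 8, beside 2589 of the 43384 probes. Male minus female was -0.20 for the listed PCNA probe (standard error 0.11, adjusted p = 0.837 in limma). For the listed EXO1 probe it was -0.26 (standard error 0.17, adjusted p = 0.846 in limma). For FEN1, MSH3 and RFC3 the values were -0.14, -0.07 and -0.10 with their listed probes. The standard errors of the 8 probes were 0.11 to 0.17.

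Probes of the same transcript had a positive r and rho across horses in both groups, though not every relation passed with rho. For PCNA, the listed probe and its partner had r = 0.80 and rho = 0.83 over the control horses (exact permutation p = 0.00689 and 0.00827) and r = 0.94 and rho = 0.90 over the EE-treated horses (permutation p = 0.00017 and 0.00086). For EXO1, r was 0.87 and rho 0.88 in control horses (exact permutation p = 0.00247 and 0.00308). In EE-treated horses the EXO1 probes gave r = 0.86 and rho = 0.62 (permutation p = 0.00254 and 0.0594), a relation that rested on single horses, since r was 0.41 without the 2 horses farthest from the median. For MSH3, r was 0.72 and rho 0.63 in the control group (exact permutation p = 0.0277 and 0.076), and r was 0.69 and rho 0.68 in the EE group (permutation p = 0.031 and 0.0345). Over these 6 relations the adjusted p of r lay between 0.00102 and 0.031 by permutation and that of rho between 0.00516 and 0.076. With rho, EXO1 in EE (adjusted permutation p = 0.0713) and MSH3 in control (0.076) and in EE (0.0517) did not pass. Without the 2 farthest horses the other 5 values of r were 0.47 to 0.94.

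The partner probes showed smaller differences between treatments than the listed ones. The other PCNA probe averaged 11.13 ± 0.28 (SD, n = 9) for control and 10.87 ± 0.28 (SD, n = 10) for EE, -0.27 apart against -0.41. For EXO1 the partner gave 6.66 ± 0.32 (SD, n = 9) and 6.29 ± 0.38 (SD, n = 10), which were -0.37 apart against -0.56. For MSH3 it gave 8.71 ± 0.21 (SD, n = 9) and 8.45 ± 0.22 (SD, n = 10), -0.26 apart against -0.35. With normexp the order was not the same, with -0.11 for the EXO1 partner against -0.03, -0.20 for the MSH3 partner against -0.19, and -0.25 for the PCNA partner against -0.44. The listed probe of a gene was picked for its difference and its partner was not, so the partner's value is the less selected of the pair. Within slides, each of the 3 partner probes was lower in EE on 4 of 5 slides.

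Whether the 5 genes moved along a shared axis of proliferation was asked within each group, where the treatment contrast plays no part. Over the 9 control horses all 10 pairs of listed probes had a positive r, with a mean of 0.40, and 1 pair passed the test. FEN1 and EXO1, the nucleases, varied together (r = 0.89, rho = 0.87, exact permutation p = 0.00158 and 0.00451, adjusted over 20 relations 0.0158 and 0.0451). Control horse470 and horse471 were low in both and horse477, horse645 and horse650 high in both, and r was 0.73 without horse470 and horse471. The pair did not pass with normexp (r = 0.71), with scan 1 alone (0.86), with the mean of all probes of a gene (0.79), or without any 1 of horse470, horse471, horse474 and horse647. With exact permutation tests, the other 9 control pairs had r from 0.11 to 0.54 (p from 0.135 to 0.77, adjusted 0.364 to 0.81) and rho from 0.08 to 0.53 (p from 0.148 to 0.843, adjusted 0.484 to 0.919).

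Control horse645 carried much of the covariation among the control horses. It was the highest control horse for PCNA, EXO1, MSH3 and RFC3, at 11.71, 5.56, 7.92 and 10.63. Without it the mean r of the 10 pairs was 0.07 in place of 0.40. The clamp and its loader, PCNA and RFC3, then had r = -0.43 in place of 0.30. PCNA with FEN1 went from 0.11 to -0.16, and PCNA with MSH3 from 0.28 to -0.26. Only the pair of nucleases kept its r of 0.89 among these 4.

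Over the 10 EE-treated horses the mean r of the 10 pairs was 0.39, and 7 pairs were positive. PCNA and RFC3 had the highest r (r = 0.84, rho = 0.83, permutation p = 0.00037 and 0.0045, adjusted over 20 relations 0.0074 and 0.0451), and r was 0.73 without EE-treated horse651 and horse469, the farthest from the PCNA median. This pair did not pass with normexp (r = 0.78) or with scan 1 alone (0.81). In this group horse651 and horse643 were the highest for both genes, and horse469 and horse646 the lowest. The second highest EE pair was EXO1 with RFC3 (r = 0.71, rho = 0.37, permutation p = 0.0292 and 0.295, adjusted 0.195 and 0.568), and its r was 0.29 without horse643. With permutation tests, the 9 pairs other than PCNA and RFC3 had r from -0.14 to 0.71 (p from 0.0292 to 0.957, adjusted 0.195 to 0.957) and rho from -0.10 to 0.56 (p from 0.0957 to 0.919, adjusted 0.484 to 0.919).

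Single horses moved the mean less among the EE-treated horses, where it was lowest without horse469, at 0.27. It was 0.30 without horse643, the highest for FEN1, EXO1 and RFC3, but single pairs moved more. Without horse643, FEN1 with EXO1 went from an r of 0.59 to 0.10 and FEN1 with RFC3 from 0.58 to 0.22. FEN1 with MSH3 went the other way, from 0.45 to 0.80, and was 0.92 without horse643 and horse646. Other omissions raised pairs past the test: FEN1 with RFC3 had 0.84 without horse651, EXO1 with RFC3 had 0.82 without horse648, and in control horses EXO1 with RFC3 went from 0.44 to 0.83 without horse650. PCNA with RFC3 had the same r of 0.84 without horse643.

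**Figure D3:**
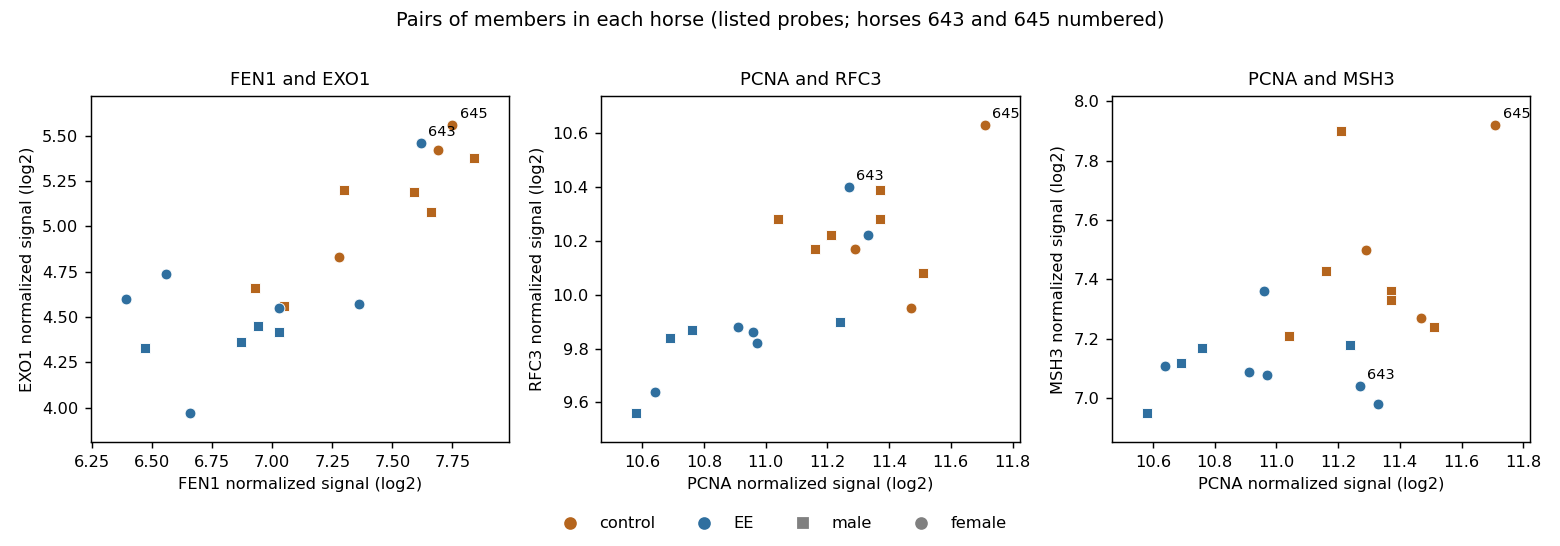
Log2 signals of the listed probes in each horse for 3 pairs, FEN1 with EXO1, PCNA with RFC3 and PCNA with MSH3, coloured by group and shaped by sex, with horse643 and horse645 numbered. FEN1 and EXO1 have r = 0.89 in control horses and PCNA and RFC3 r = 0.84 in EE-treated horses, while PCNA and MSH3 have r = -0.02 in EE-treated horses.

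The pairs with MSH3 were set apart after the values were seen, and they carry no test. Its 4 pairs had a mean r of 0.04 among the EE-treated horses, from -0.14 with EXO1 to 0.45 with FEN1, against a mean of 0.62 for the 6 pairs of the other genes. Much of this gap rested on horse643: without it the 4 pairs ran from 0.03 to 0.80 and the 6 others from 0.10 to 0.84. In control horses the corresponding means were 0.35 and 0.42. The spread of MSH3 among EE-treated horses was small (SD 0.12), and its sign with PCNA and EXO1 changed with the processing. A difference in r between the groups was not tested.

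With the group means removed and all 19 horses pooled, the mean r of the 10 pairs was 0.41, and it was 0.31 when the slide means were removed too. Removing the slides left the pairs of replication and excision genes near their earlier values. PCNA with RFC3 went from 0.65 to 0.70 and FEN1 with EXO1 from 0.71 to 0.70. The 4 pairs with MSH3 went from a mean of 0.21 to -0.01, while the 6 others went from 0.55 to 0.53. Among all probes above background on every array, 0.381% followed FEN1 at least as closely as EXO1 did, and 0.471% followed EXO1 at least as closely as FEN1 did. For RFC3 and PCNA these shares were 0.724% around RFC3 and 2.08% around PCNA. The remaining pairs without MSH3 had shares from 1.28% (EXO1 around RFC3) to 19.7% (FEN1 around PCNA). For MSH3 the closest other member was FEN1, with r = 0.29, at rank 2622 among the probes.

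**Figure D4:**
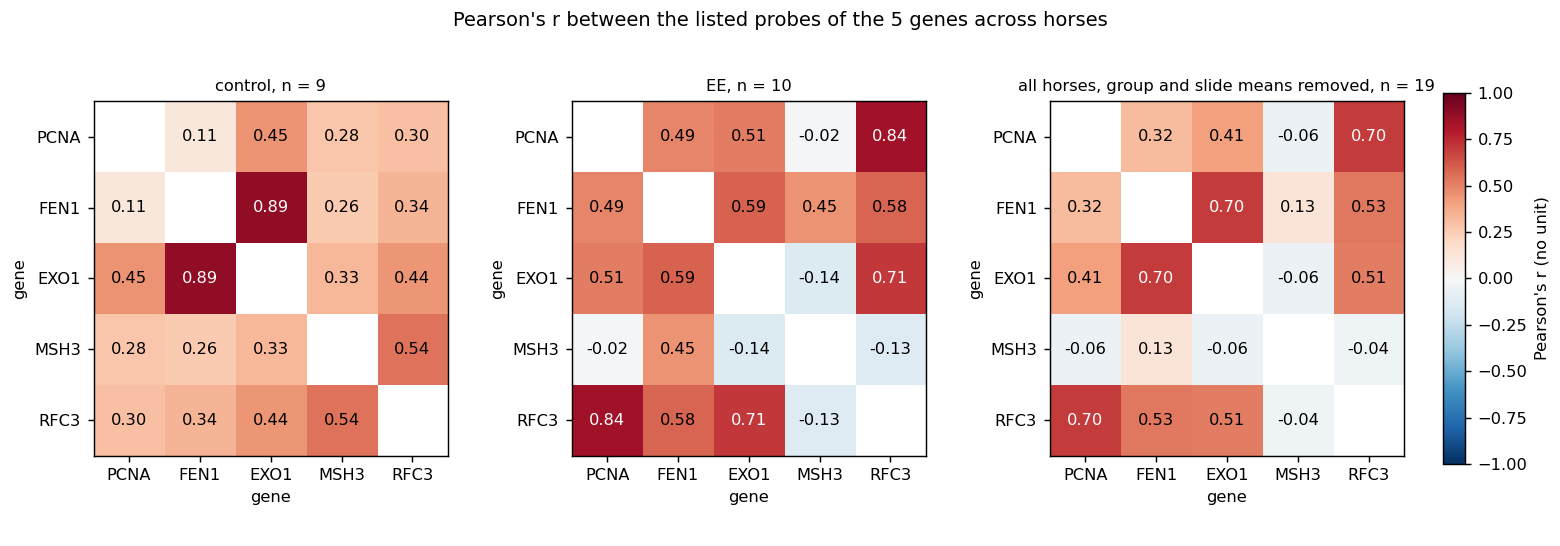
Pearson's r between the listed probes of the 5 genes, over 9 control horses, over 10 EE-treated horses, and over all 19 horses with the means of group and slide removed. The highest values are 0.89 for FEN1 with EXO1 in control horses and 0.84 for PCNA with RFC3 in EE-treated horses, and the values of MSH3 lie between -0.14 and 0.45 in EE-treated horses.

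To order the horses, each gene was centred on its group, divided by its spread and averaged over the 5 members. Control horse645 (1.55) and EE-treated horse643 (1.61) had the highest values, both females and on different slides. The lowest were EE-treated horse469 (-1.14) and horse646 (-0.73) and control horse470 (-0.80) and horse471 (-0.77). This mean served to find which other genes varied like the members from horse to horse.

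Of the 24434 other probes above background on every array, 781 (3.2%) had r of at least 0.5 with the members' mean and 300 (1.23%) had r of at most -0.5, with a median of 0.01 and quartiles of -0.16 and 0.18. These correlations over 19 horses are descriptions with no p, and 1462 of the probes had a gene symbol. The 10 named probes with the highest r were those of 7 genes. SHCBP1, a protein of dividing cells, led with r = 0.89. CDC6, which loads the replicative helicase at origins, had r = 0.83 and 0.80 with its 2 probes, and MCM10, which helps to start the fork, had r = 0.79. The transcription factor E2F8 had r = 0.82, 0.79 and 0.77 with 3 of its probes. SKA3 (r = 0.79) and SMC2 (r = 0.75) serve the attachment and the condensation of chromosomes. GFPT1 (r = 0.78) is the entry enzyme of the hexosamine pathway. All 10 probes took their name from the supplementary lists, which were chosen by the difference between the groups, and had differences from -0.93 to -0.33.

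At the other end, the named probes with the lowest r were BACE2, a membrane protease (r = -0.66), and AIFM3, a mitochondrial protein related to apoptosis-inducing factor (r = -0.63 and -0.62). BACE2, named through the supplementary lists, had a difference of -0.40 with 9 of 10 EE-treated horses below the control mean, the direction of the members despite its negative r. AIFM3 could be tested, as its name came from a RefSeq accession: the difference was 0.21 for one probe (standard error 0.10, adjusted p = 0.44 in limma) and 0.17 for the other (standard error 0.11, adjusted p = 0.542 in limma), with 9 and 8 of the 10 EE-treated horses above the control mean. With normexp, the r of BACE2 shrank to -0.21 and that of the first AIFM3 probe to -0.34.

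Each member also had its own nearest named genes. Those of PCNA were CENPS, a protein of the kinetochore and of DNA repair (r = 0.92), PCLAF, a factor that binds PCNA itself (r = 0.87), and the chromatin helicase HELLS (r = 0.84). CENPS and PCLAF have RefSeq names and were not in the supplementary lists. The CENPS difference between treatments was -0.34 (standard error 0.16, p = 0.0409, adjusted p = 0.409 in limma), with 7 of 10 EE-treated horses below the control mean. For PCLAF it was -0.61 (standard error 0.22, p = 0.0109, adjusted p = 0.308 in limma), with 8 of 10 below. Neither passed the test after adjustment. RFC3 was followed most closely by SHCBP1 (r = 0.81), CDC6 (r = 0.80) and the integrin ITGA9 (r = 0.80), and ITGA9 had a difference of 0.35 between treatments (standard error 0.31, adjusted p = 0.605 in limma), with 4 of 10 EE-treated horses below the control mean.

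Among the nucleases, FEN1 had as its nearest named probes 3 probes of SEC61A1, the channel through which proteins enter the endoplasmic reticulum (r = 0.86, 0.84 and 0.82). EXO1 was closest to MCM10 (r = 0.89), GFPT1 (r = 0.84) and NCAPG, a condensin subunit (r = 0.82). For MSH3 the values were lower: ESF1, a nucleolar protein (r = 0.73), the signalling adaptor TICAM2 (r = 0.59) and CDKAL1, which modifies transfer RNA (r = 0.58). With single horses left out, the r of CDKAL1 ran from 0.38 to 0.72. The TICAM2 difference between treatments was -0.14 (standard error 0.10, adjusted p = 0.57 in limma), with 8 of 10 EE-treated horses below the control mean.

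**Figure D5:**
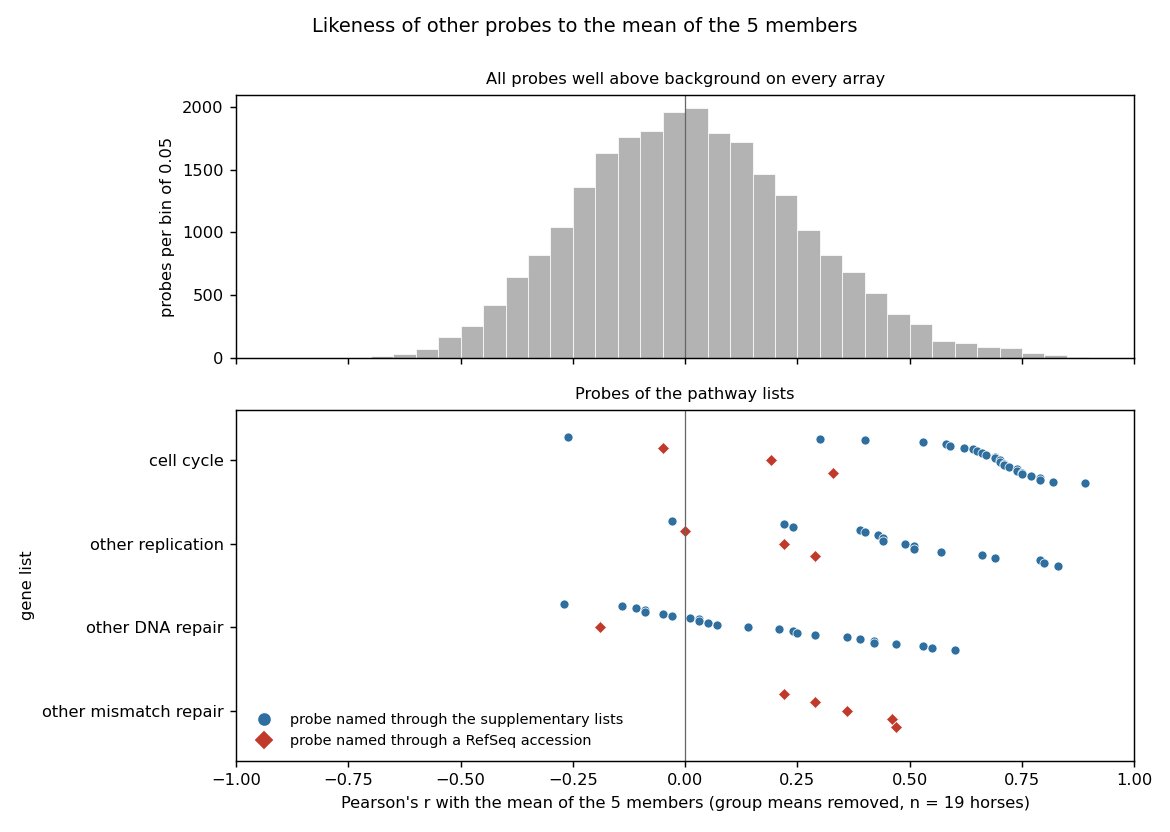
Pearson's r over 19 horses, with group means removed, between other probes and the mean of the 5 members: above, 24434 probes above background on every array in bins of 0.05; below, the probes of the 4 pathway lists, circles for names from the supplementary lists and diamonds for names from RefSeq accessions. Cell cycle probes named through the supplementary lists have a median r of 0.70, against 0.01 for the 24434 probes. Those lists and the members were chosen by the same difference between groups, so the comparison is not like with like. The 3 cell cycle probes named through RefSeq, 1 of them above background on every array, have a median r of 0.19.

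The rest of the pathway was looked up in 4 lists: replication (67 genes), mismatch repair (20), other DNA repair (65) and the cell cycle (73). Few genes of these lists could be named without the supplementary lists. POLD3, a subunit of DNA polymerase delta in the replication and mismatch repair lists, had differences of -0.11 and -0.19 with its 2 probes (adjusted p = 0.743 and 0.573 in limma, 5 and 6 of 10 EE-treated horses below the control mean) and r of 0.29 and 0.22 with the members' mean. RNASEH2C, of the enzyme that removes RNA from DNA, had 0.12 (adjusted p = 0.759 in limma, 4 of 10 below) and r = -0.00. The chromatin protein HMGB1, a cofactor of mismatch repair, had -0.07, 0.05 and -0.02 with its 3 probes (adjusted p from 0.767 to 0.936 in limma, 6, 3 and 5 of 10 below) and followed the members with r of 0.36 to 0.47. PRKDC, a kinase of double-strand break repair, had -0.18 (adjusted p = 0.69 in limma, 6 of 10 below) and r = -0.19. In the cell cycle list the spindle checkpoint gene BUB3 had -0.33, with 9 of 10 EE-treated horses below the control mean (adjusted p = 0.452 in limma), and r = -0.05. CDC25A was above background on 0 arrays and E2F7 on 1. Of these 10 RefSeq-named probes, 0 passed the threshold of p and ratio in either direction, beside the 0.643% and 1.18% of all probes. This count was 0 with the limits set either way. An unadjusted p under 0.05 in limma was reached by 0 of the 10, beside 5068 of all 43384 probes. A difference between these shares was not tested. CENPS and PCLAF, described above, are in none of the 4 lists and so are not in these counts.

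Genes of the lists that were named only through the supplementary lists had been chosen for their difference on these arrays, so their counts are no independent evidence of a direction. In the replication list there were 8 such genes with 17 probes: MCM10, GINS4, WDHD1, MCM8, CDC6, ORC2, TOPBP1 and RRM1. All 17 probes were lower in EE, with a median difference of -0.36 beside 0.064 over all 43384 probes, of which 39.7% were lower. Their median r with the members' mean was 0.49. RRM1, the large subunit of the enzyme that makes deoxynucleotides, had r = 0.49 and 0.66, and TOPBP1, which helps to fire origins, had r from 0.22 to 0.51 over 4 probes.

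The cell cycle list held 14 such genes with 27 probes: ASPM, SMC2, TPX2, DEPDC1B, SKA3, SGO2, CENPO, E2F8, NUF2, SHCBP1, CENPE, NCAPG, HELLS and CCND3. All 27 were lower in EE, with a median difference of -0.53, and 24 had r of at least 0.5 with the members' mean (median 0.70). The spindle protein TPX2 had r = 0.53 and 0.62, and the kinetochore protein NUF2 had r = 0.71. The exceptions were ASPM, a spindle pole protein, with r = 0.30 and 0.40, and CCND3, a cyclin that starts the cycle, with r = -0.26. The 10 genes of the other DNA repair list (PALB2, RAD51B, RECQL5, PSMC3IP, FANCD2, UIMC1, HUS1, SMARCAD1, ERCC6 and BLM) had 25 probes, 22 of them lower in EE with a median difference over the 25 of -0.41. Their median r with the members' mean was 0.14, or 0.35 with normexp and 0.06 to 0.21 with single horses left out. FANCD2, which acts at stalled forks, had r = 0.60, the 5 probes of PSMC3IP, of homologous recombination, had r from 0.29 to 0.55, and the 2 of HUS1, of a checkpoint clamp, had 0.36 and 0.47. The 5 probes of ERCC6, of transcription-coupled repair, had r between -0.11 and 0.03 at differences of -0.57 to -0.49. A difference between the lists was not tested.

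Markers of blood cells were set beside the members' mean, and their part in the results was not tested. Of the 15 neutrophil genes 3 were named, S100A12, MMP9 and LTF, with S100A12 the most abundant. Their summed scaled signal was 20829 to 39906 in control horses (median 25974) and 30163 to 81682 in EE-treated horses (median 38237), with ranges that overlapped. The list mean differed by 0.37 and had r = -0.12 with the members' mean. Within that list, the 5 probes of S100A12 had r from -0.56 to -0.50 and differences of 0.77 to 0.80, MMP9 had r = -0.43 and a difference of 0.59, and LTF had r = 0.31 and a difference of -0.27. S100A12 is also in the supplementary lists.

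Among the lymphocyte lists, of 19 T cell genes 6 were named, with LCK the most abundant and a summed signal of 10051 to 18306 in control horses (median 11931) and 12526 to 18880 in EE-treated horses (median 16300). LCK, CD6 and CD7, with differences of 0.35, 0.52 and 0.34, were named through the supplementary lists and so chosen by that difference, while CD2, CD28 and IL7R, named through RefSeq, had 0.23, 0.14 and -0.12. The T cell list had r = -0.11 with the members' mean. Of 13 B cell genes 3 were named, with CD74 the most abundant, and the sum was 9782 to 15414 (median 11700) in control and 8997 to 15323 (median 12090) in EE. The B cell list had r = -0.33. Its sum is mostly CD74, which differed by 0.07. FCER2, a receptor for IgE, had differences of 0.94 to 1.10 with 5 probes (r from -0.33 to -0.24), while its remaining probe was at background on every array, and FCRL3 had a difference of -0.64 (r = -0.02). FCER2 and FCRL3 are in the supplementary lists as well. Of 10 genes of natural killer cells 3 were named, with GZMB the most abundant, sums of 2752 to 21417 (median 6361) and 2694 to 13537 (median 5473), and r = 0.04. Of the 8 plasma cell genes 0 were named, so that list gave no value.

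For the other cells of blood, 2 of 10 monocyte genes were named, with CD14 the most abundant and sums of 5984 to 18051 (median 11920) in control and 9021 to 23658 (median 13425) in EE, and r = -0.22. Of 20 red cell genes 4 were named, with HBA2 the most abundant and sums of 3089 to 41102 (median 8799) in control and 3034 to 113022 (median 5192) in EE. The mean of this list, which includes genes at background, had r = 0.04, and the globins HBA2 and HBB had 0.08 and 0.09. TFRC was at background on every array, and SLC4A1, an anion exchanger of the red cell membrane, was above it on at most 1 array with each of its 5 probes. Of 9 platelet genes 3 were named, with SELP the most abundant and ITGB3 above background on at most 1 array with each probe. The sums were 3152 to 7759 (median 4793) in control and 3347 to 11195 (median 5847) in EE. The list mean had r = -0.10, with SELP at -0.04 and ITGA2B at 0.08. KIT was the 1 named gene of 5 progenitor genes, above background on 9 arrays with 1 of its probes and on 0 with the other. Its sums were 1.63 to 6 (median 4) in control and 2.69 to 7 (median 5) in EE. As most of these signals were at background, the sums and r are no measure of progenitor cells. The progenitor list had r = -0.26, from -0.46 and 0.17 for the 2 probes of KIT, and its sign turned with the deposited log2 values (0.09) and with normexp (0.47). Over the alternatives and with single horses left out, r kept its sign in the B cell list (-0.53 to -0.09) and the monocyte list (-0.32 to -0.08) and turned in the 6 other lists with values.

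Array quality was set beside the members in 10 relations, each over 19 horses with group means removed and permuted within groups. RFC3 followed the percentage of spots above background with r = 0.54 and rho = 0.35 (permutation p = 0.0238 and 0.152, adjusted 0.238 and 0.467), and r was 0.49 without the 2 farthest horses. PCNA came next with r = 0.47 and rho = 0.45 (permutation p = 0.0588 and 0.0659, adjusted 0.294 and 0.467). Control horse645, the highest for 4 members, had the highest percentage of its group at 69.6%. EE-treated horse643 and horse651, the highest for PCNA and RFC3, were each at 67.2%. The lowest for both genes, horse469 and horse646, were at 61.8% and 61.5%. The ends of the EE group were horse475 at 68.4% and horse648 at 61.4%. Neither relation passed after adjustment, and the 8 others, with FEN1, EXO1 and MSH3 or with the brightness of the array before scaling, had r from -0.26 to 0.35 (permutation p from 0.157 to 0.841, adjusted 0.525 to 0.841) and rho from -0.25 to 0.34 (permutation p from 0.154 to 0.781, adjusted 0.467 to 0.781).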

How the data were processed

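Venous whole blood of 19 horses was analysed, with 9 control and 10 EE-treated horses grouped by the sample labels. The authors scanned the arrays and used Feature Extraction (10.7.3.1 in the file headers and 9.1 in the submitters' processing notes) to give the deposited intensity of each spot, corrected for background but not scaled between arrays. The authors also deposited log2 values per probe, with column medians of 5.08 to 5.28. Set against the scanner values, these log2 values matched the intensity with anything under 10 set to 10 and the 75th percentile then brought to 500, to within 0.0012 over the 43000 probes of 1 spot, so that scale and centring are known and they were used as an alternative. How the authors combined repeated spots stays unknown. The columns hold levels, and the direction of every difference comes from the sample labels. Only probe names and symbols were taken from the supplementary lists, whose fold-change heading runs opposite to the arrays for the members.

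Here the 43803 non-control spots of each array were scaled to a 75th percentile of 500 without a floor and taken to log2. Spots marked as outliers (2 to 56 per array) were left out, and spots of a probe were averaged. All 43384 probes were fitted with limma 3.58.1 (lmFit and eBayes) in R 4.3.3, with Benjamini-Hochberg adjustment over all probes. Correlations and permutations (exact for 9 horses, 100000 for more) used Python 3.11.15, numpy 2.4.6 and scipy 1.17.1, two-sided, and figures used matplotlib 3.10.9. The scripts were tested on simulated data.

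Members were found by probe name in the supplementary list of 400 probes and by shared transcript name, and this list and the list at the stricter threshold also gave symbols to 397 probes and, through shared transcript names, to 276 more. RefSeq (assembly TB-T2T, names only) named 1781 of 3275 probes with an accession, and 2454 probes had a symbol in all. The members and lists were chosen with earlier results of these data known. The named genes are the members, every gene of the 4 pathway lists that could be named, the 10 named probes of highest and 3 of lowest r with the members' mean, the 3 nearest to each member, and of each of 9 marker lists (T, B, plasma, natural killer and progenitor cells, neutrophils, monocytes, red cells, platelets) the most abundant gene and genes at background. Further marker genes and pathway examples were named after their values were seen.

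Alternatives were quantile normalization, median centring, the deposited log2 values, a filter on dim probes (25690 left), outlier spots kept, slide as a block, the 16 arrays of scan 1 alone, sex in the fit or removed, treatment left out, normexp on the median signal with an offset of 50 (leaving out 30 spots, on 4 EE arrays, whose local background exceeded 10 times the array's median), the random-variance test, the mean of all probes of a gene, the ratio limits set on control over EE, and the omission of each single horse. The normexp spot filter, the turned ratio limits, and all alternatives for likeness, marker lists, probe agreement and the interaction, were chosen after seeing the data. Sequences were not analysed here.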

Additional observations from a re-analysis of the deposited data

Results flagged for a closer look

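In 1 of 16 groups checked (8 probes in 2 groups), the listed probe of EXO1 in the EE group, a single horse lay far from the rest. EE-treated horse643 had a log2 signal of 5.46, while the other EE-treated horses lay between 3.97 and 4.74, a gap of 0.486 of the group's whole range. Chance flags about 5% of groups, and the cause was not tested. The other EXO1 probe gave the same horse the highest EE signal, 7.02 against 5.66 to 6.61. Horse643 also had the highest summed red cell signal, 113022, with EE-treated horse651 next at 57817. A link between the red cell signal and EXO1 was not tested.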

How the results depend on the processing

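With normexp, the probes lower in EE numbered 104 in place of 279, and the split was 629 higher and 104 lower against 510 and 279. With this setting, which changed several steps at once, the median difference over all probes was 0.161 in place of 0.064. The listed probes of EXO1, FEN1, MSH3, PCNA and RFC3 differed by -0.03, -0.31, -0.19, -0.44 and -0.36 there (the other probes of EXO1, MSH3 and PCNA by -0.11, -0.20 and -0.25). Probes at an adjusted p under 0.05 in limma, 0 with 5068 at an unadjusted p under 0.05, were 7 with normexp, 2 with the filter on dim probes and 0 with the random-variance test. The value of male minus female, FEN1, changed sign with slide as a block (0.00089) and with treatment left out (0.02), and that of MSH3 with treatment left out (0.03).

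Of the pairs, 2 passed. With scan 1 alone 0 passed (FEN1 with EXO1 in control 0.86, PCNA with RFC3 in EE 0.81, with fewer horses), with normexp 0 (0.71 and 0.78), and with the mean of all probes of a gene 1 (PCNA with RFC3 in EE 0.83, while FEN1 with EXO1 in control, at 0.79, did not pass). In EE, PCNA with MSH3 changed sign with quantile normalization (0.07), median centring (0.18), normexp (0.26) and the mean of all probes (0.12), and EXO1 with MSH3 with normexp (0.16) and the mean of all probes (0.07). PCNA with FEN1 in control was -0.04 with sex means removed. The median r of the other DNA repair probes was 0.35 with normexp. The cause of these changes was not tested.

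Leaving out each horse singly, the probes passing p and ratio in EE against control numbered 501 (without control horse477) to 1039, and those at an adjusted p under 0.05 in limma 0 to 3 (3 without control horse650, 1 without horse472). Between 1 and 3 pairs passed. FEN1 with EXO1 in control lay between 0.86 and 0.93 and did not pass without horse470, horse471, horse474 or horse647 (8 horses each). In control, PCNA with FEN1 ran from -0.16 to 0.39, with MSH3 from -0.26 to 0.57 and with RFC3 from -0.43 to 0.53, the lowest without horse645, and PCNA with FEN1 was -0.06 without horse470. In EE, PCNA with MSH3 ran from -0.30 to 0.22, EXO1 with MSH3 from -0.27 to 0.08 and MSH3 with RFC3 from -0.47 to 0.05, with a sign that turned without horse643, without horse651 (PCNA and RFC3) or without horse473 (PCNA). Male minus female ran from -0.12 to 0.01 for MSH3 (above 0 without horse645) and from -0.04 to 0.06 for its other probe (below 0 without horse468 or horse474). For the other listed probes it stayed below 0, from -0.27 to -0.16 for PCNA and from -0.2 to -0.07 for FEN1. For EXO1 it ran from -0.34 to -0.17 (its other probe -0.19 to -0.03) and for RFC3 from -0.17 to -0.04.

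All 8 member differences between treatments were below 0 under every alternative. The genes were chosen by this contrast on the same arrays, so the constant sign is no independent support for it. No analysis paired by horse was possible because each horse was in a single group and the groups share no number. The slides held horses of both groups, and slide as a block was among the alternatives. Position on the slide went with the group except for horse475, so no alternative could separate position from treatment.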
